A study of Mus musculus with 2 samples.

Results

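Antioxidant defence was followed through 10 genes, Slc7a11, Gclc, Gclm, Prdx1, Txnrd1, Srxn1, Sod1, Sod2, Cat and Gpx4, matched by symbol among the 12638 genes of a single-cell expression matrix; all 10 were measured. The matrix covered 12458 CD45+ immune cells, sorted with enrichment for dendritic cells (DC), from C57Bl6 mice carrying subcutaneous MC38-OVAdim tumours on the flank, a colon carcinoma line that expresses ovalbumin. Mice KO1 and KO2 carried a knockout of Havcr2, the gene of the immune receptor TIM-3. The controls, WT1 and WT2, were Havcr2 fl/fl animals, in which the gene is flanked by recombination sites, so each genotype had 2 mice. The Cre driver, the exons removed and the age of the mice are not given in the labels. From each of the 4 mice came tumour, tumour-draining lymph node (dLN) and non-draining lymph node (ndLN), giving 12 samples of 473 to 1691 cells and of 3031124 to 28498154 unique molecular identifiers (UMIs, each a counted RNA molecule).

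Cells oxidise themselves through respiration and through NADPH oxidase, and these enzymes remove the products. Slc7a11 imports cystine; Gclc and Gclm, the catalytic and modifier subunits of glutamate-cysteine ligase, use its cysteine for the rate-limiting step of glutathione synthesis. Prdx1 reduces peroxides with thioredoxin, Txnrd1 recharges thioredoxin, and Srxn1 repairs over-oxidised peroxiredoxins. Sod1 in the cytosol and Sod2 in mitochondria turn superoxide into hydrogen peroxide, which Cat breaks down in peroxisomes, while Gpx4 uses glutathione to reduce lipid peroxides in membranes. Many of these genes are known targets of the transcription factor NRF2, which binds antioxidant response elements, and Sod2 is a known target of NF-kB.

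In the genome (build mm10, GENCODE annotation) Srxn1 and Cat share chromosome 2, Gclm and Slc7a11 chromosome 3, and Txnrd1 and Gpx4 chromosome 10. Slc7a11 spans chr3:49892526-50443614 on the minus strand, Gclc chr9:77754535-77794485 and Gclm chr3:122245557-122270732, both on the plus strand. Prdx1 spans chr4:116685544-116700822, Txnrd1 chr10:82833951-82897712 and Srxn1 chr2:152105516-152111376, all on the plus strand. Sod1 spans chr16:90220754-90226329, Sod2 chr17:13006846-13040063 and Gpx4 chr10:80047166-80056439 on the plus strand, and Cat chr2:103453849-103485160 on the minus strand. Sod1 overlaps Scaf4, which lies on the other strand and is also in the matrix. Txnrd1 overlaps Eid3 and Gclm the pseudogene Gm6061, both on the same strand, Slc7a11 overlaps 5 annotated genes, and Gpx4 has a named pseudogene. Reads could be shared at overlaps on the same strand and with the Gpx4 pseudogene, which was not tested.

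Promoter windows of 300 bases, 250 before and 50 after the start site, were searched in the RefSeq sequences (GRCm38.p6) for the antioxidant response element core TGACNNNGC on both strands, because Prdx1, Txnrd1 and Srxn1 were high together in the tumour macrophages that also held Slc7a11 (described last). All members but Gclc had a window. A core was found for Gclm, for 1 of 3 Txnrd1 promoters, for Prdx1, for Sod1 and for Srxn1. Counted by gene, 17.2% of the 9500 matrix genes with a window held one, and by promoter 12.4% of all in the table (4071 of 32851). The windows of Slc7a11, Sod2 and Cat and the 4 windows of Gpx4 held no core. The sequences below run 5′ to 3′ along the plus strand, which is the gene's strand, and the capitals mark the core, which in each case reads on the opposite strand. The Prdx1 core overlaps an AP-1 motif (TGAGTCA or TGACTCA), which 5.20% of promoters held, and the other 3 do not. These matches are a description of letters and were not measured as binding sites.
Gclm, chr3:122245408-122245446: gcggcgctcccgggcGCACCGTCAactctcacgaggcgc
Txnrd1, chr10:82859099-82859137: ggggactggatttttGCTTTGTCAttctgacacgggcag
Prdx1, chr4:116685451-116685489: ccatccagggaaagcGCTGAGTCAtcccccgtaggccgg
Sod1, chr16:90220691-90220729: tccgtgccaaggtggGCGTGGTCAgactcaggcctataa

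Cells were sorted into classes by marker genes that include no antioxidant gene, and 11341 cells received a class. Of the 61 measured markers 59 were highest in their own class. The same markers set the classes, so this count is no independent check of them. A tumour cell had a median of 15191 UMIs, a dLN cell 4520 and an ndLN cell 4633, and 65 cell barcodes occurred in both droplet channels, each of which held 1 KO and 1 WT mouse. Levels are given as UMIs per 10000 UMIs of the cell, averaged over the cells of a class in 1 mouse, and differences on the scale log2(UMIs per 10000 + 0.1), which understates changes of low genes. Tests were made over mice with limma, with p-values adjusted by the Benjamini-Hochberg method over all genes tested in a comparison and a threshold of 0.05. Havcr2 itself was low in macrophages of KO tumours, at 0.0539 and 0.0352 UMIs per 10000, against 0.628 and 0.541 in WT tumours (log2 difference −2.24, SE 0.117, limma adjusted p = 7.41e-04). In tumour monocytes it was 0.857 and 0.793 in KO mice, against 1.12 and 1.61 in WT mice (−0.64, SE 0.190, limma adjusted p = 0.962), so the label is less plainly seen there. Nor was it plain in tumour CD8 T cells, with 1.37 and 0.655 in KO mice, against 1.62 and 0.352 in WT mice (8 cells in WT2). Nonclassical monocytes of tumours held 0.692 and 1.37, against 1.06 and 0.960 (7 cells in KO2, 17 in WT2). Node B, CD4 T and CD8 T cells held at most 0.0241 in any mouse, so the label cannot be checked in them. Nor can it be checked in mature DC of nodes, which held 0 in KO mice and WT2 and at most 0.0485 in WT1. Node plasmacytoid DC held 0 in KO mice and at most 0.115 in WT mice, with 0 in ndLN of WT2, so it is not plain there. In cDC1 of dLN, a DC type that takes up dead cells, Havcr2 was 0.0122 and 0.0285 in KO mice, against 1.22 and 1.42 in WT mice (−3.56, SE 0.247, limma adjusted p = 3.74e-05).

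The 10 genes differed in which cell classes held most of them. Cat, Gclc and Sod1 were highest in mature DC, the Ccr7-positive state of DC that have migrated to lymph nodes. Cat averaged 2.26 ± 0.20 UMIs per 10000 in mature DC of ndLN and 1.96 ± 0.31 in those of dLN (SD, n = 4 mice each), ranges that overlap. Gclc averaged 1.04 ± 0.20 in mature DC of dLN and 0.974 ± 0.30 in those of ndLN (SD, n = 4 each). Next came tumour cDC1 with 0.695, from 1 mouse, where 1 of 46 cells gave 92.5% of the summed level. Pooled over those cells the rate was 0.143, from 12 UMIs. No other class and tissue averaged above 0.373. Sod1 averaged 1.38 ± 0.23 in mature DC of ndLN, 1.37 ± 0.54 in those of dLN and 0.884 ± 0.54 in cDC1 of dLN (SD, n = 4 each), whose ranges overlap.

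Prdx1, Sod2 and Slc7a11 were highest in tumour myeloid cells. Prdx1 averaged 17.5 ± 2.4 UMIs per 10000 in tumour macrophages and 8.22 ± 0.63 in tumour monocytes (SD, n = 4 each), while neutrophil-gated cells averaged 0.709 in 2 mice. Sod2 averaged 1.55 ± 0.22 in macrophages and 4.34 ± 0.98 in monocytes (SD, n = 4 each), and 0.412 ± 0.084 in mature DC of ndLN. Slc7a11 was highest in the few neutrophil-gated cells, at 14.7 and 9.55 in WT1 and WT2. It averaged 0.466 ± 0.18 in macrophages and 0.732 ± 0.14 in monocytes (SD, n = 4 each), ranges that overlap. Node B cells held no Slc7a11 UMI in 2401 cells, which allows a share of cells with a UMI of up to 0.125%, and 1 of 178 tumour CD8 T cells held any (0.562%). Of 98 tumour NK cells 0 held any, which allows up to 3.06%. Intervals and such limits cover counting error only.

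Gclm was highest in plasmacytoid DC (pDC), interferon-producing cells, with 4.22 ± 0.41 UMIs per 10000 in dLN and 4.16 ± 0.54 in ndLN, and averaged 1.56 ± 0.11 in monocytes (SD, n = 4 each). Gpx4 was lowest in cDC1 of ndLN, with 1.41 ± 0.13 (SD, n = 3), and highest in mature DC of the 1 tumour with enough of them, with 6.48. Srxn1 was highest in tumour regulatory T cells (0.550) and tumour mature DC (0.484), each from 1 mouse, and averaged 0.187 ± 0.031 in macrophages and 0.161 ± 0.044 in monocytes (SD, n = 4 each), and no UMI of it was found in 2401 node B cells. Txnrd1 averaged 0.599 ± 0.094 in monocytes and 0.064 ± 0.029 in pDC of dLN (SD, n = 4 each). The 34 mature DC of the WT1 tumour had less Gclc (0.165) and Sod1 (0.175) than any mouse's mature DC in a node, and 1.21 for Cat.

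**Figure D1:**
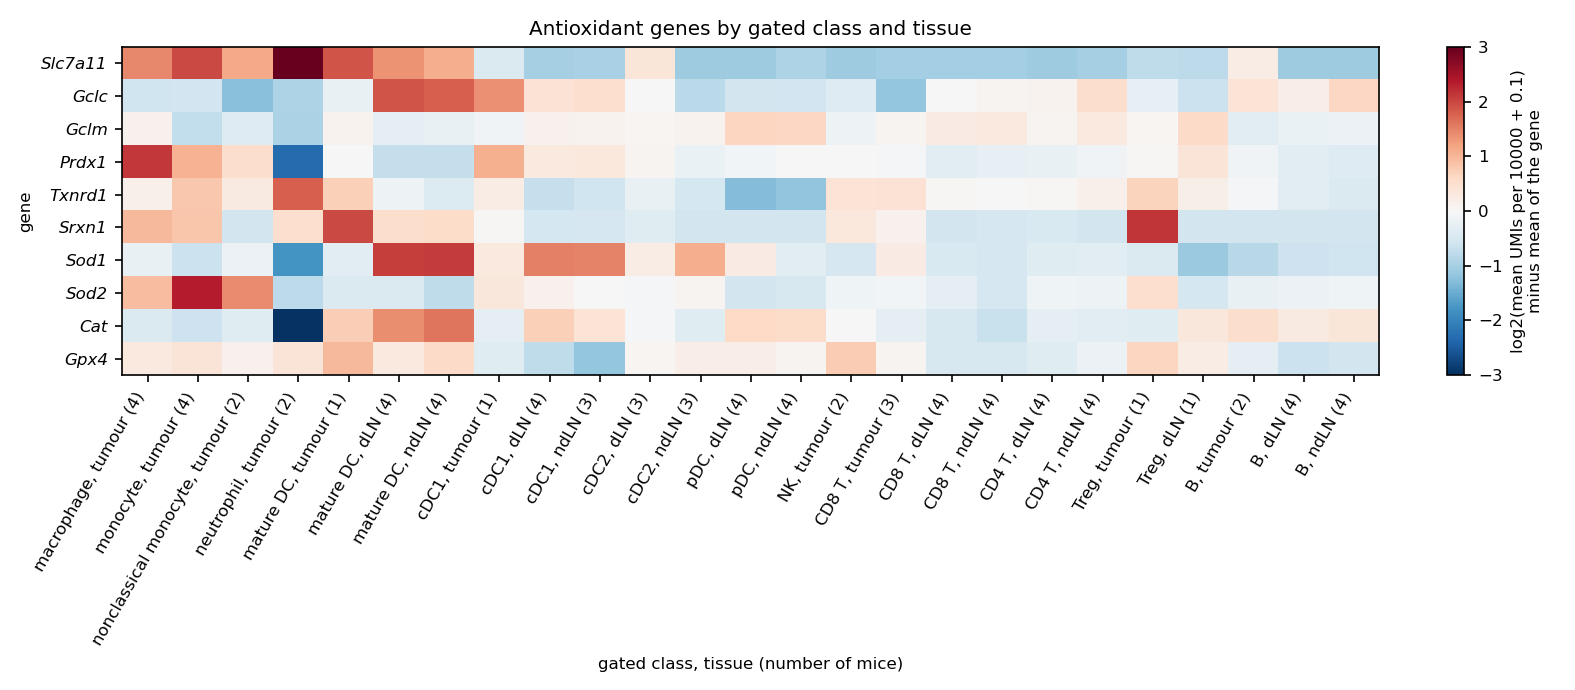
Heat map of the 10 antioxidant genes (rows) over cell classes by tissue (columns, with the number of mice), coloured by log2(mean UMIs per 10000 + 0.1) minus the gene's mean over columns, with colours cut at 3 on either side. Cat, Gclc and Sod1 stand out in mature DC of both nodes, Prdx1 and Sod2 in tumour macrophages and monocytes, and Slc7a11 in neutrophil-gated cells.

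Tumour macrophages and the monocytes from which such cells can arise differed in which antioxidant genes they carried. Macrophages had more Prdx1, Gclm and Sod1 and less Sod2, Txnrd1 and Slc7a11, in the same direction in all 4 mice for each of the 6. Of 10 members 6 passed the test, 3 up and 3 down, where 52.3% of all genes tested passed, so the share called was near that of the whole transcriptome. The members' median difference was 0.07, against −0.03 over all 6865 genes.

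Prdx1 in macrophages was 18.0 and 19.0 UMIs per 10000 in KO mice and 18.9 and 13.9 in WT mice, against 9.05, 8.15, 8.17 and 7.50 in the monocytes of KO1, KO2, WT1 and WT2 (1.07, SE 0.0735, limma adjusted p = 2.37e-07). The lowest macrophage value was above the highest monocyte value. Gclm in macrophages was 2.74, 2.94, 2.85 and 3.01 in KO1, KO2, WT1 and WT2, against 1.64, 1.62, 1.40 and 1.59 in monocytes (0.85, SE 0.0735, limma adjusted p = 1.62e-06), again with no overlap. Sod1 in macrophages was 0.182, 0.219, 0.190 and 0.2, against 0.133, 0.0606, 0.170 and 0.129 in monocytes in the same order of mice (0.44, SE 0.149, limma adjusted p = 0.0270). With no filter on low genes the adjusted p of Sod1 was 0.0811.

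Sod2 ran the other way and did so in every mouse. It was 1.83, 1.58, 1.46 and 1.32 UMIs per 10000 in macrophages of KO1, KO2, WT1 and WT2, against 5.38, 4.92, 3.84 and 3.23 in monocytes (−1.41, SE 0.0774, limma adjusted p = 3.64e-08). Txnrd1 was 0.306, 0.398, 0.353 and 0.322 in macrophages, against 0.702, 0.516, 0.524 and 0.656 in monocytes (−0.65, SE 0.122, limma adjusted p = 8.14e-04). Slc7a11 was 0.464, 0.711, 0.268 and 0.421 in macrophages, against 0.895, 0.801, 0.649 and 0.584 in monocytes (−0.60, SE 0.133, limma adjusted p = 0.00255). Monocytes were higher within each mouse for each of these genes, although for Slc7a11 the KO2 macrophages lay above the WT monocytes. Gclc (−0.01), Srxn1 (0.15), Cat (0.22) and Gpx4 (−0.10) did not pass.

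Among genes of related pathways, macrophages had more of the iron-storage genes Fth1 (257 against 172 UMIs per 10000, 0.59) and Ftl1 (94.8 against 56.6, 0.74), both known NRF2 targets. They had less Prdx5 (19.4 against 37.1, −0.93), a peroxiredoxin of mitochondria and peroxisomes, less Gpx1 (18.9 against 30.6, −0.69), the main cytosolic glutathione peroxidase, and less Dusp1 (6.39 against 19.7, −1.62), a phosphatase of stress kinases. The list of oxidant sources, which also holds Dusp1, fell in 7 of 9 genes and rose in 0 (6 of 8 without Dusp1, left out after its values were seen), and the NRF2 regulators fell in 4 of 9 and rose in 0. Of the thioredoxin and peroxiredoxin list 7 of 14 rose and 4 fell, of the glutathione list 3 of 15 rose and 6 fell, and of the other NRF2 targets 4 of 10 rose and 4 fell. The superoxide dismutase partners rose in 2 of 2 and the selenoprotein list rose in 3 and fell in 3 of 10. These shares stand beside the 52.3% of all genes called. Stress genes induced by tissue handling fell in 6 of 10 (median −0.83) and proliferation genes rose in 7 of 7 (median 2.28); the median depth was 20720 to 21886 UMIs per macrophage against 8834 to 10040 per monocyte. The part of these in the antioxidant differences was not tested.

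Mature DC were set against cDC1 and against cDC2, which present to CD4 T cells, in the same nodes. In both nodes, mature DC had more Gclc and Cat and less Prdx1 than either type. Slc7a11, Gpx4 and Sod1 were higher in some of these comparisons, and Sod2 lower in 3 of 4. Against cDC1 of dLN 8 of 9 members tested passed, 5 up and 3 down, where 45.9% of all genes passed; in ndLN 6 of 9 passed, 4 up and 2 down, where 42.2% passed. Against cDC2 of dLN 4 of 9 passed, 3 up and 1 down, where 30.7% passed, and in ndLN 6 of 9, 4 up and 2 down, where 35.6% passed. The members' median differences were 0.64, 0.53, 0.21 and 0.35 in that order, against −0.08, −0.08, −0.13 and −0.14 over all genes; the last 2 show a shift of the whole scale by which all cDC2 differences can be read. The comparisons share their mature DC. The members up include Slc7a11 against cDC1 of both nodes and cDC2 of ndLN, and Gclc against cDC2 of ndLN. Each met the filter there only through mature DC, so those calls are no support for the shares above.

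Gclc in mature DC of dLN was 1.24, 0.783, 0.998 and 1.13 UMIs per 10000 in KO1, KO2, WT1 and WT2, against 0.382, 0.230, 0.347 and 0.317 in cDC1 (1.44, SE 0.203, limma adjusted p = 4.37e-05). Every mouse's mature DC lay above every cDC1 value. Against cDC2 of dLN, with 0.228, 0.246 and 0.138 in KO1, KO2 and WT1, the difference was 1.86 (SE 0.320, limma adjusted p = 3.38e-04). In ndLN it was 1.34 against cDC1 (SE 0.292, limma adjusted p = 0.00157, n = 3 mice) and 2.48 against cDC2 (SE 0.341, limma adjusted p = 9.00e-06, n = 3 mice). Gclc averaged 0.0750 in cDC2 of ndLN, under the filter, and entered that test through mature DC, so its adjusted p there adds nothing to the levels. Gclm, its partner subunit, did not follow: it was 2.43, 2.04, 2.29 and 1.92 in mature DC of dLN, against 2.91, 2.79, 3.09 and 2.94 in cDC1 (−0.42, SE 0.147, limma adjusted p = 0.0291). Under a stricter cell gate the adjusted p of Gclm was 0.120, and against cDC1 of ndLN it was 0.114.

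Slc7a11 was nearly absent from cDC1 and present in a minority of mature DC. In dLN 39 of 435 mature DC held 70 UMIs, against 2 UMIs in 2 of 185 cDC1, a ratio of pooled rates of 33.1 with an exact 95% interval for counting error of 8.82 to 278.5. Per mouse it was 1.27, 0, 0.299 and 0.164 UMIs per 10000 in mature DC of KO1, KO2, WT1 and WT2, against 0.00851, 0.0105, 0 and 0 in cDC1 (1.73, SE 0.449, limma adjusted p = 0.00571). KO2, whose 21 mature DC held none, went against the other 3 mice. In ndLN it was 0.0547, 0.331 and 0.538 in mature DC of KO2, WT1 and WT2, against 0, 0 and 0.0206 in cDC1 (1.71, SE 0.362, limma adjusted p = 0.00126). The 80 cDC2 of ndLN held 0 UMIs. The pooled rate in mature DC was 7.95 times a floor of 3 UMIs over that cDC2 group. Counting error of the mature DC UMIs is left out, so 7.95 is no lower limit. Against cDC2 of dLN the difference of 0.76 did not pass (limma adjusted p = 0.469), with 22 UMIs in 9 of 146 cDC2. Fitted differences against levels at or near 0 depend on the 0.1 added. Slc7a11 met the filter against cDC1, and against cDC2 of ndLN, only through mature DC, so its adjusted p there adds nothing to the counts.

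Srxn1 was below the filter for these tests, but its counts had the same form. In dLN 45 of 435 mature DC held 58 Srxn1 UMIs, against 1 UMI in 185 cDC1 (ratio of pooled rates 54.8, exact 95% interval 9.46 to 2202). Of the 58 UMIs 3, 1, 36 and 18 came from KO1, KO2, WT1 and WT2, so WT mice gave most of them. Per mouse the mature DC averaged 0.0642, 0.0990, 0.166 and 0.116 UMIs per 10000, against 0.00633, 0, 0 and 0 in cDC1. In the 3 mice with enough cDC2, 30 of 274 mature DC of dLN held a UMI, against 2 of 146 cDC2 (ratio 13.8, exact 95% interval 3.58 to 117.9). Txnrd1 did not pass in any of the 4 comparisons (differences 0.21 to 0.46). Prdx1 was lower in mature DC: 2.02, 2.33, 2.95 and 2.06 UMIs per 10000 in KO1, KO2, WT1 and WT2 of dLN, against 4.58, 4.65, 5.72 and 4.37 in cDC1 (−1.02, SE 0.138, limma adjusted p = 2.80e-05). The groups did not overlap. It was also lower against cDC1 of ndLN (−0.96, limma adjusted p = 0.00118), cDC2 of dLN (−0.76, 0.00978) and cDC2 of ndLN (−0.61, 0.0360), the last with KO2 level at 2.54 in mature DC and 2.47 in cDC2.

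Of the superoxide dismutases, Sod1 was higher in mature DC and Sod2 lower. Against cDC2 of dLN, Sod1 was 0.890, 2.10 and 1.03 UMIs per 10000 in mature DC of KO1, KO2 and WT1, against 0.293, 0.461 and 0.163 in cDC2 (1.80, SE 0.301, limma adjusted p = 2.61e-04). In ndLN the difference from cDC2 was 1.13 (SE 0.261, limma adjusted p = 0.00190). Against cDC1 it was 0.64 in dLN (limma adjusted p = 0.0384), where WT2 had 1.45 in mature DC and 1.69 in cDC1 and so ran the other way, and 0.53 in ndLN (0.0575, not past the threshold). Sod2 was lower than in cDC1 of dLN by −0.58 (limma adjusted p = 0.0355), of ndLN by −0.66 (0.0339) and than in cDC2 of ndLN by −0.81 (0.0465), while −0.42 against cDC2 of dLN did not pass. With no filter on low genes the Sod1 and Sod2 calls against cDC1 of dLN and the Sod2 call against cDC2 of ndLN were lost. The Sod1 call against cDC1 of dLN and each of the 3 Sod2 calls were also lost when certain single mice were left out, WT1 or KO1 among them.

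Cat and Gpx4, the peroxide and lipid peroxide enzymes, were both higher than in cDC1. Cat was 1.80, 1.66, 2.36 and 2.02 UMIs per 10000 in mature DC of dLN in KO1, KO2, WT1 and WT2, against 1.32, 1.14, 1.18 and 1.05 in cDC1 (0.69, SE 0.170, limma adjusted p = 0.00425). In ndLN it was 2.48, 2.39 and 2.13 in KO2, WT1 and WT2, against 0.965, 1.07 and 0.773 in cDC1 (1.24, SE 0.189, limma adjusted p = 7.24e-05). Against cDC2 it was higher by 1.42 in dLN and 1.99 in ndLN (limma adjusted p = 8.18e-04 and 3.27e-06), so the mature DC were above both other types in every mouse. When log values were averaged over cells instead, the Cat difference from cDC1 of dLN missed the threshold (limma adjusted p = 0.0602). Gpx4 was 4.74, 5.09 and 4.92 in mature DC of ndLN in KO2, WT1 and WT2, against 1.44, 1.27 and 1.51 in cDC1 (1.74, SE 0.174, limma adjusted p = 8.78e-07), and in dLN the difference was 1.00 (SE 0.181, limma adjusted p = 3.81e-04). Against cDC2, the Gpx4 difference was 0.06 for dLN and 0.35 for ndLN, neither past the threshold.

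**Figure D2:**
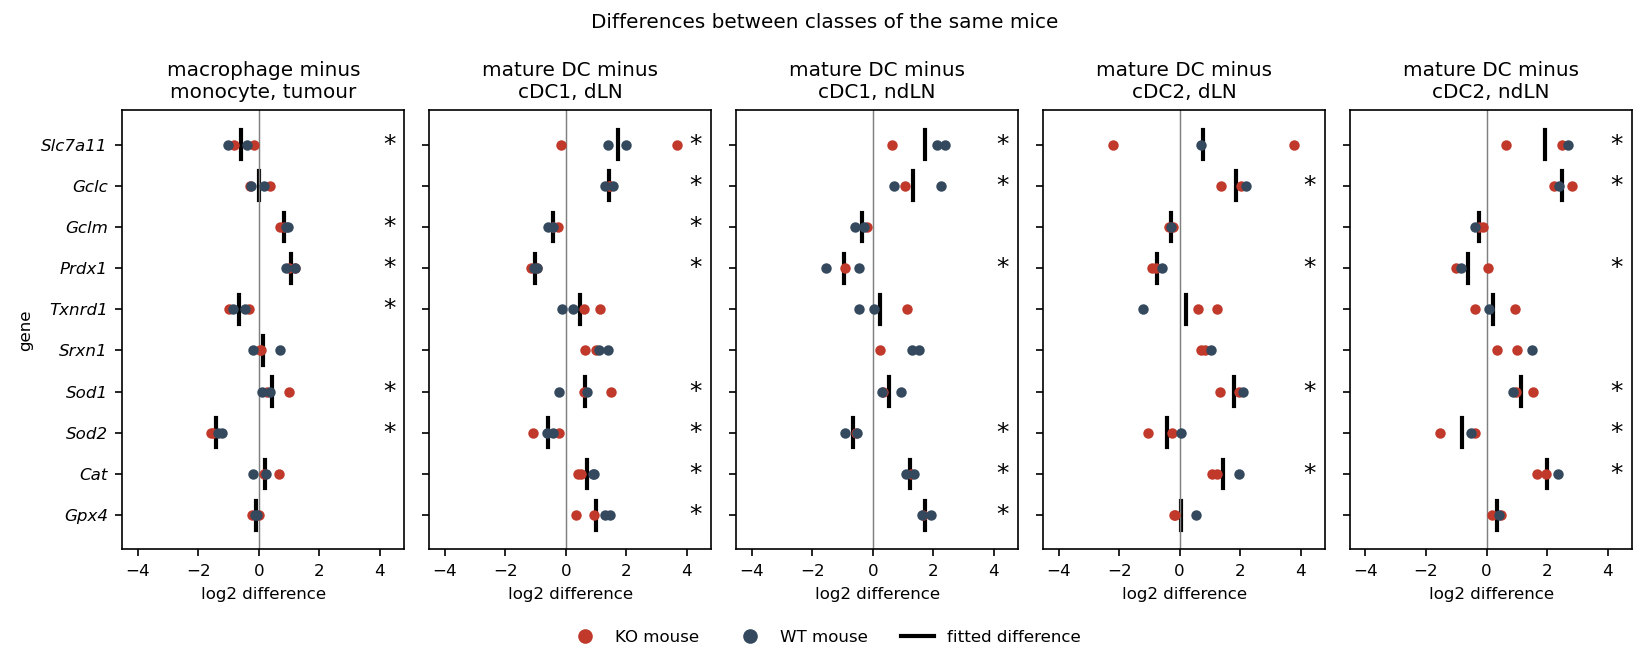
Log2 differences per mouse (points) for 5 comparisons of cell classes (macrophage minus monocyte in tumour, and mature DC minus cDC1 or cDC2 in each node), with the fitted difference as a black bar and a star where the limma adjusted p was under 0.05. Gclc and Cat lie above 0 and Prdx1 below it in nearly every mouse of the mature DC panels, while Prdx1 is above 0 and Sod2 below it in all 4 mice of the macrophage panel.

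The surrounding pathway genes of mature DC also split. Ftl1 was higher than in cDC1 of dLN (61.4 against 23.8 UMIs per 10000, 1.35) and ndLN (1.52), and than in cDC2 of dLN (0.86) and ndLN (1.35). Fth1 was higher than in cDC1 (0.55 in dLN, 0.64 in ndLN) but lower than in cDC2 (−1.30 and −1.26). Cyba, the membrane subunit of NADPH oxidase, was higher in all 4 comparisons (0.90 and 0.88 against cDC1, 1.00 and 1.79 against cDC2), and Gpx1 lower in all 4 (−2.34 and −2.34, −2.95 and −2.72). Txn1, the thioredoxin that Txnrd1 recharges, was higher than in cDC1 of dLN (10.4 against 5.50, 0.88). Txndc17, a thioredoxin-like protein, was higher by 2.76 against cDC1 and 3.77 against cDC2 in ndLN, and Dusp1 lower by −0.68 against cDC2 of dLN.

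By lists, against cDC1 of dLN, where 45.9% of all genes were called, the NRF2 regulators rose in 4 of 8 and fell in 0, and the oxidant sources rose in 4 of 6 and fell in 2 (3 and 2 of 5 without Dusp1). There the glutathione list rose in 2 and fell in 4 of 12, and the thioredoxin and peroxiredoxin list rose in 3 and fell in 7 of 15. The other NRF2 targets rose in 4 and fell in 4 of 11, and the selenoprotein list rose in 2 and fell in 2 of 8. Against cDC2 of ndLN, where 35.6% were called, the NRF2 regulators rose in 2 and fell in 2 of 9, and the oxidant sources rose in 2 and fell in 4 of 8 (2 and 4 of 7 without Dusp1). Handling stress genes fell in 6, 7, 7 and 7 of 10 in the 4 comparisons (cDC1 of dLN and ndLN, then cDC2 of dLN and ndLN), with medians of −0.57, −1.02, −1.35 and −1.06. Proliferation genes fell in 6 of 7 against cDC1 of dLN and 6 of 7 in ndLN. Their part in the antioxidant differences was not tested.

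Whole tumour samples differed from dLN of the same mice in most of the 10 genes. Macrophages made up 51.0% to 64.5% of tumour cells, against 0% to 0.589% of dLN cells, and B and T cells 2.19% to 9.97% of tumour cells, against 64.6% to 79.1% of dLN cells; their part in the differences was not tested. In such whole-sample values fewer cells of a type and less RNA per cell cannot be told apart. Of 9 members tested 7 passed, 5 up and 2 down, where 67.5% of all genes passed. Prdx1 was 14.6, 15.2, 13.0 and 11.7 UMIs per 10000 in tumours of KO1, KO2, WT1 and WT2, against 3.59, 3.24, 3.43 and 3.13 in dLN (1.99, SE 0.0712, limma adjusted p = 4.57e-06). Slc7a11 was 0.691, 0.793, 0.448 and 0.729 in tumours, against 0.0946, 0.0312, 0.0799 and 0.0346 in dLN (2.25, SE 0.196, limma adjusted p = 1.42e-04). Neither gene had overlapping ranges. Slc7a11 was under the filter in dLN of every mouse and entered this test through the tumours.

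Sod2 (1.38), Gpx4 (0.58) and Txnrd1 (0.57) were higher in tumour samples as well, with limma adjusted p of 2.94e-05, 4.18e-04 and 5.28e-04. Srxn1 ranged over 0.162 to 0.189 UMIs per 10000 in tumours, against 0.00485 to 0.0345 in dLN, and was below the filter. Gclc was lower, at 0.107, 0.0974, 0.113 and 0.105 in tumours of KO1, KO2, WT1 and WT2, against 0.282, 0.264, 0.355 and 0.380 in dLN (−1.02, SE 0.0854, limma adjusted p = 1.19e-04), and so was Cat (−0.70, limma adjusted p = 3.73e-04). Sod1 (−0.41, limma adjusted p = 0.0573) and Gclm (−0.07) did not pass. The other NRF2 targets rose in 10 of 11 and fell in 1, with Fth1 at 207 against 34.8 and Ftl1 at 76.0 against 23.7, and the list of oxidant sources rose in 8 of 9 and fell in 1 (7 and 1 of 8 without Dusp1), where 67.5% of all genes were called. The glutathione list rose in 8 of 17 and fell in 3.

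CD8 T cells were the class with enough cells in both tumour and dLN, in KO1, KO2 and WT1. Of 8 members tested 3 passed, 2 up and 1 down, where 30.2% of all genes passed and the median of all genes was 0.19, so upward differences are read against that shift. Gclc was 0.0502, 0 and 0.0664 UMIs per 10000 in tumour CD8 T cells of KO1, KO2 and WT1, against 0.190, 0.287 and 0.164 in dLN (−1.19, SE 0.314, limma adjusted p = 0.00784), with no overlap. It averaged 0.0389 in the tumour cells, under the filter, and entered the test through dLN. Gpx4 was 3.94, 3.44 and 3.0, against 2.33, 2.25 and 2.47 (0.53, SE 0.130, limma adjusted p = 0.00463). Sod1 was 0.331, 0.402 and 0.198, against 0.102, 0.169 and 0.145 (0.76, SE 0.271, limma adjusted p = 0.0426), and 0.109 with no filter on low genes. Without KO1 only 1 member passed.

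Srxn1 was found in 11 of 170 tumour CD8 T cells of these mice with 12 UMIs, against 0 of 707 in dLN. The pooled tumour rate was 10.98 times a floor of 3 UMIs over the dLN cells. Counting error of the 12 UMIs is left out, so 10.98 is no lower limit. The share of cells allowed by such a count of 0 is not corrected for the greater depth of tumour cells. Prdx1 (0.29, limma adjusted p = 0.0731), Txnrd1 (0.40), Cat (0.16), Sod2 (0.14) and Gclm (−0.18) did not pass. In the tumour cells Fth1 (21.3 against 14.998, 0.49), Cyba (0.85) and Rac2 (0.39) were higher, and Gpx1 (−0.47) and Txnip, an inhibitor of thioredoxin, (−0.79) lower. Handling stress genes rose in 3 and fell in 5 of 10.

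The knockout was compared with wild type in 13 combinations of class and tissue over 8 classes. In classes with several tissues, the tissues of a mouse entered as separate samples. Genotype here is that of the mouse, since Havcr2 was near 0 in node B cells, T cells and mature DC of both genotypes. None of 110 tests of members passed the threshold (lowest limma adjusted p = 0.545), 6 had an unadjusted p under 0.05, and 0 passed by limma-voom. The share of all genes called was 0.0433% in tumour macrophages and 0.0% in tumour monocytes, 0.0% in mature DC of either node, and 0.0605% in cDC1 of dLN. It was 0.0277% and 0.18% in pDC of dLN and ndLN, 0.0144% and 0.0% in B cells, and 0.0% in CD4 T and CD8 T cells of either node.

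In tumour macrophages, Slc7a11 was 0.464 and 0.711 UMIs per 10000 in KO mice, against 0.268 and 0.421 in WT mice (0.63, SE 0.207, limma adjusted p = 0.692). The KO values lay above the WT values, by a narrow margin. A limma fit with the droplet channel as a block gave an adjusted p of 0.0128 for Slc7a11, and 107 genes were called with the block, against 3 without it. Pooled over cells the rates were 0.367 (95% Poisson interval 0.340 to 0.396) and 0.478 (0.426 to 0.534) in KO1 and KO2, against 0.277 (0.254 to 0.302) and 0.379 (0.344 to 0.417) in WT1 and WT2. The share of macrophages with a UMI was 27.1% and 30.5%, against 18.8% and 29.2%, and 1 cell of KO2 gave 5.11% of that mouse's Slc7a11 UMIs and 14.2% of its summed UMIs per 10000.

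Sod2 in macrophages was 1.83 and 1.58 UMIs per 10000 in KO mice, against 1.46 and 1.32 in WT mice (0.28, SE 0.109, limma adjusted p = 0.695), and in monocytes 5.38 and 4.92, against 3.84 and 3.23 (0.53, SE 0.134, limma adjusted p = 0.962). Slc7a11 in monocytes was 0.895 and 0.801, against 0.649 and 0.584 (0.40, SE 0.167, limma adjusted p = 0.962). These values do not overlap, nor in monocytes do those of Gclm (1.64 and 1.62 in KO mice, against 1.40 and 1.59 in WT mice) and, barely, Gpx4 (4.37 and 4.13, against 4.37 and 4.37). That made 2 of 10 members in macrophages, where 38.6% of all genes did not overlap, and 4 of 10 in monocytes, where 33.6% did not, so the members stand no further apart than other genes. The genotype difference in monocytes against that in macrophages was tested for the 10 members, with both classes of a mouse taken as separate samples. Of the members 0 passed (lowest limma adjusted p = 0.998), where 0.0% of genes passed. Of the raw limma p-values 0 were under 0.05, and limma-voom called 0.

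**Figure D3:**
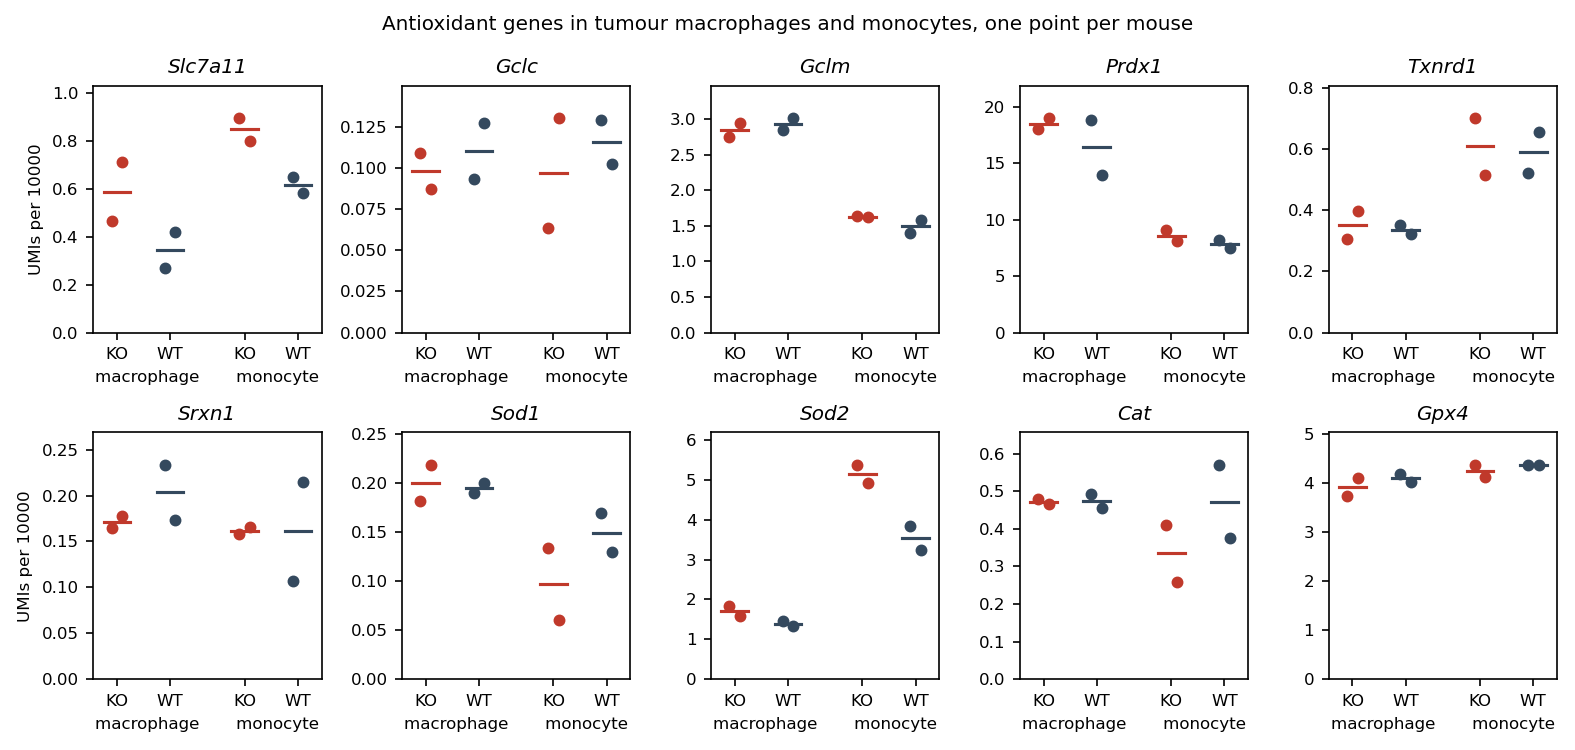
UMIs per 10000 of the 10 antioxidant genes in tumour macrophages and tumour monocytes, 1 panel a gene, with 1 point a mouse (KO left of WT in each class) and a line at the mean of 2 mice. Slc7a11 and Sod2 points of KO mice sit above those of WT mice in both classes, and Prdx1, Gclm, Sod2 and Txnrd1 differ more between classes than between genotypes.

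Prdx1 in macrophages was 18.0 and 19.0 in KO mice, against 18.9 and 13.9 in WT mice (0.19, SE 0.164, limma adjusted p = 0.819), and the direction came from WT2 alone. In mature DC of dLN, Gpx4 was 3.64 and 2.65 in KO mice, against 4.50 and 5.27 in WT mice (−0.63, limma adjusted p = 0.545). Slc7a11 there was 1.27 and 0, against 0.299 and 0.164; in KO1 1 of 41 cells gave 33.3% of the 18 UMIs and 48.8% of the summed UMIs per 10000, in WT2 1 of 161 cells gave 64.7% of the 17 UMIs, and KO2 had 21 cells. In pDC of ndLN the Sod2 difference was −0.89 (limma adjusted p = 0.570).

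Taking all cells of a node together, Sod1 was lower in KO mice: 0.208 and 0.236 UMIs per 10000 in dLN of KO mice, against 0.352 and 0.439 in dLN of WT mice (−0.62, SE 0.137, limma adjusted p = 0.0392). It was the 1 of 9 members to pass in dLN, where 3.11% of genes passed; 0 of 9 passed in ndLN (0.0% of genes, Sod1 −0.39, limma adjusted p = 0.343) and 0 of 9 in tumour (0.0662% of genes). Mature DC, which had the most Sod1, made up 4.03% and 1.44% of dLN cells in KO mice, against 18.6% and 15.2% in WT mice. With mature DC left out, Sod1 was 0.179 and 0.208 in KO mice, against 0.197 and 0.257 in WT mice (−0.15, limma adjusted p = 0.711), and 12 genes were called, against 235 in all cells. Within mature DC of dLN the Sod1 difference was 0.16 (limma adjusted p = 0.933). With any 1 mouse left out, the limma adjusted p of Sod1 for all dLN cells was 0.115 to 0.260. The fit for all cells took the tissues of a mouse as separate samples. Also called in all dLN cells were Fth1 (0.30), Gpx1 (0.59) and Cybb (0.73), higher in KO mice, and Txn1 (−1.01) and Txndc17 (−1.65), lower in KO mice. With mature DC left out they were 0.33, 0.50, 0.53, −0.16 and −0.024 in the same order, and none was called (lowest limma adjusted p = 0.0848).

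**Figure D4:**
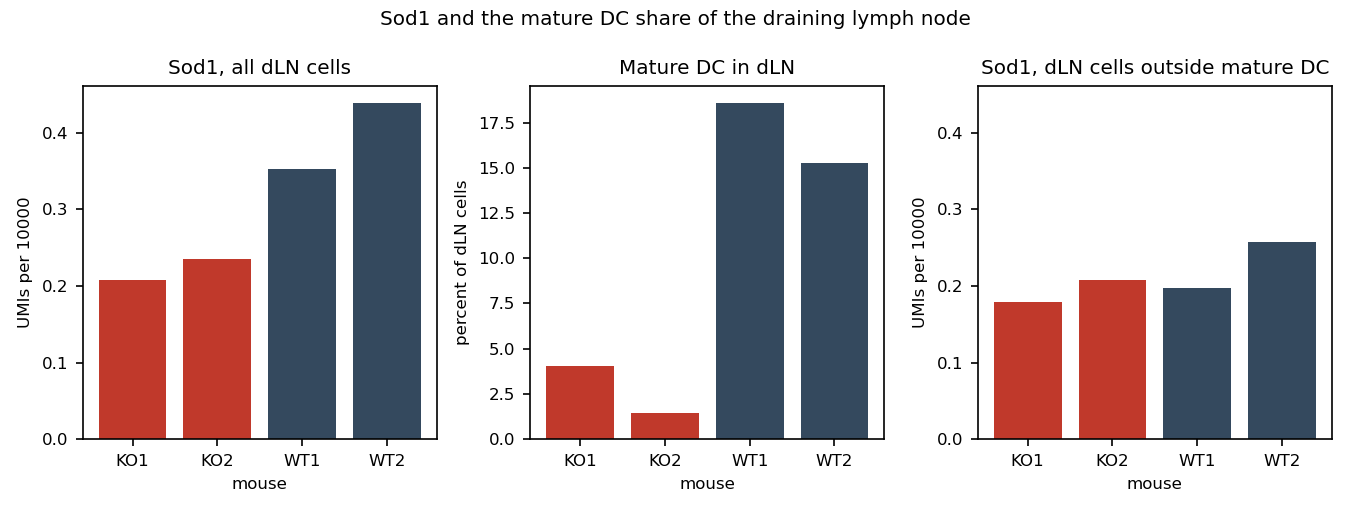
Bars per mouse in dLN (KO1, KO2, WT1, WT2) for Sod1 in all cells (UMIs per 10000), the share of mature DC among all cells (percent) and Sod1 in cells outside mature DC (UMIs per 10000). KO mice are lower in the first 2 panels, and in the third KO values of 0.179 and 0.208 stand beside WT values of 0.197 and 0.257.

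Draining and non-draining nodes were compared within 6 classes. None of 49 member tests passed (lowest limma adjusted p = 0.657), 3 had an unadjusted p under 0.05 and 0 passed by limma-voom. The 3 were Gclc in B cells (−0.41, dLN minus ndLN), Gpx4 in cDC1 (0.42) and Sod1 in pDC (0.64). Of all genes 0.0% were called in B cells and mature DC, 0.0286% in CD4 T cells, 0.061% in CD8 T cells, 0.0463% in cDC1 and 0.0692% in pDC.

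Tumour macrophages in which Slc7a11 was detected held more of several other antioxidant genes than those in which it was not. Cells with 10000 or more UMIs were thinned to 10000 UMIs each, and cells with fewer were left out. That kept 762 of 857, 265 of 305, 737 of 862 and 434 of 513 macrophages in KO1, KO2, WT1 and WT2. Kept cells with a Slc7a11 UMI made up 19.0% and 20.8% in KO1 and KO2, against 13.0% and 19.6% in WT1 and WT2. Cells of 1 mouse share their source, so values are given per mouse as a description with no test. Of the 9 other members 6 were higher in the cells with Slc7a11 in all 4 mice (Prdx1, Txnrd1, Srxn1, Sod1, Sod2 and Gpx4), where 9.69% of 6829 genes were. Their median difference over the 9 was 0.34, against −0.06 over all genes.

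Prdx1 averaged 29.0, 31.8, 42.3 and 23.3 UMIs in macrophages with Slc7a11 of KO1, KO2, WT1 and WT2, against 15.8, 15.5, 14.7 and 12 in those without, log2 differences of 0.88, 1.03, 1.51 and 0.95. Srxn1 differed by 0.83, 1.04, 1.25 and 1.29 and Sod2 by 1.11, 0.88, 0.80 and 0.36 in the same order. Txnrd1 differed by 0.60 to 1.08 over the mice, Gpx4 by 0.05 to 0.14 and Sod1 by 0.05 to 0.58. Gclm, whose differences ran over −0.10 to 0.28, Cat (−0.12 to 0.49) and Gclc (−0.27 to 0.87) differed in sign between mice.

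The related lists went both ways. Higher in all 4 mice were 7 of 15 other NRF2 targets (lower in all 4, 0), 8 of 26 glutathione genes (lower 1), 6 of 9 in the list of oxidant sources (lower 1) and 4 of 19 thioredoxin and peroxiredoxin genes (lower 4). Of 10 selenoprotein genes 1 was higher and 5 lower, and of 9 NRF2 regulators 1 and 1, where 662 and 1320 of all 6829 genes were. Among the higher genes were the haem-degrading enzyme Hmox1 (1.57 to 2.10), the nitric oxide synthase Nos2 (1.25 to 1.53), glutathione reductase Gsr (0.68 to 1.25), Prdx6 (0.64 to 1.25) and Fth1 (0.61 to 0.79). Among the lower were Prdx4 (−0.69 to −0.09), Park7 (−0.23 to −0.11), Sesn1 (−0.71 to −0.30), Txnip (−0.22 to −0.02) and the selenoprotein Sepp1 (−0.68 to −0.40), with 5 of 7 proliferation genes, among them Birc5 (−1.29 to −0.62) and Stmn1 (−1.48 to −0.45). Macrophage markers summed to 239, 212, 235 and 220 UMIs in cells with Slc7a11, against 308, 281, 298 and 244 in cells without. Monocyte markers summed to 3.29, 3.04, 3.38 and 4.33, against 2.54, 2.41, 2.90 and 4.03, and 4 neutrophil markers to 0.379, 0.2, 2.20 and 0.588, against 0.266, 0.176, 0.296 and 0.249. The part of these cells' identity in the differences was not tested. In tumour monocytes, where 24, 6, 30 and 21 cells held Slc7a11 in KO1, KO2, WT1 and WT2, Prdx1, Sod2 and Srxn1 were higher in all 4 mice (3 of 9 members, where 5.50% of 6634 genes were). The depth cut kept 59 of 145, 22 of 43, 99 of 200 and 83 of 205 monocytes in KO1, KO2, WT1 and WT2. In KO2 the Sod2 means were 3.67 and 3.63 UMIs and the Srxn1 means 0.333 and 0.125, on 6 cells with Slc7a11. Neutrophil markers summed to 12.1, 0.5, 0.7 and 2.05 UMIs in these monocytes, against 0.343, 0.25, 0.551 and 0.355 in those without, and their part was not tested.

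**Figure D5:**
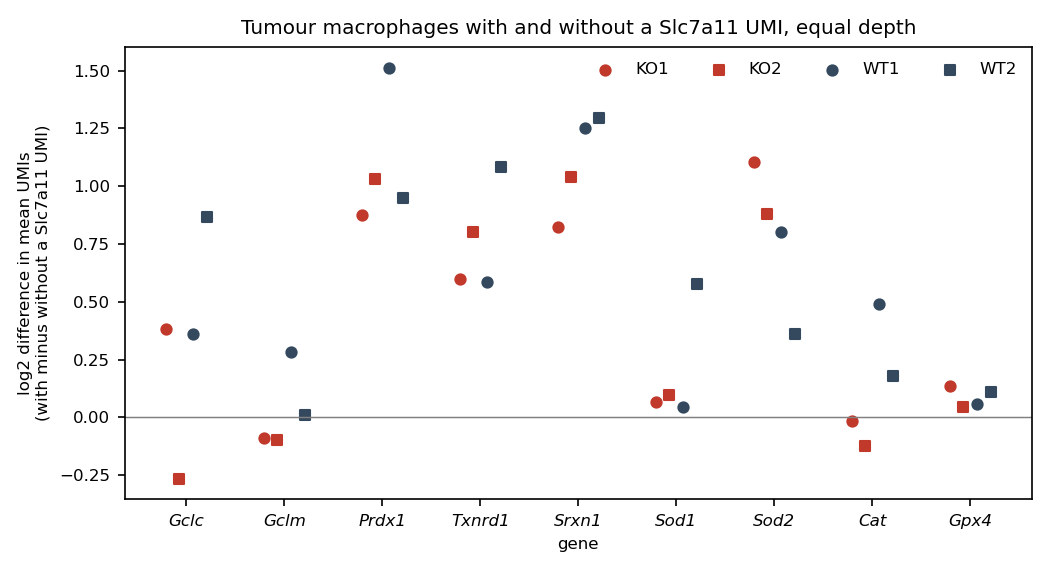
Log2 differences between tumour macrophages with and without a Slc7a11 UMI, 1 point a mouse, for the 9 other antioxidant genes. Only cells of 10000 or more UMIs are included, thinned to 10000. Prdx1, Srxn1, Txnrd1 and Sod2 lie above 0 in all 4 mice, and Gclm, Cat and Gclc fall on both sides.

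Across 76 samples of class, tissue and mouse, the members did not form a single pattern. Their closest pair by Pearson correlation of log2 levels was Prdx1 with Sod2 (r = 0.73), followed by Cat with Sod1 (0.63), Cat with Gclc (0.59) and Gpx4 with Srxn1 (0.58), while Gclm ran against Slc7a11 (−0.61) and Cat against Txnrd1 (−0.57). Samples share mice, channels and depth, so these are descriptions. Among 2673 genes, the 3 most like Slc7a11 were Tnfaip2 (r = 0.92), Mcl1 (0.86) and Ccrl2 (0.86), and the 3 most like Sod2 were Chil3 (0.77), itself a marker used to gate monocytes, Ccl2 (0.76) and Tkt (0.76). The most like Prdx1 were Cmpk1, Psmb2 and Slc25a39 (0.81, 0.81 and 0.80), like Srxn1 Tspo, AA467197 and Tuba1c (0.77, 0.77 and 0.75) and like Txnrd1 Slfn2, Zbp1 and Rbms1 (0.75, 0.72 and 0.72). The most like Gclc were Zfos1, Etv3 and Clu (0.75, 0.72 and 0.71), like Gclm Rpl31, Ppia and Park7 (0.84, 0.83 and 0.80) and like Gpx4 H2-D1, Gng5 and S100a6 (0.73, 0.73 and 0.72). Cat was most like Cdc37, Mrpl38 and Dek (0.80, 0.80 and 0.79) and Sod1 most like Adam23, Tbca and Cox7c (0.82, 0.80 and 0.80).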

How the data were processed

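Single-cell 5′ RNA libraries were made in 2 droplet channels with antibody tags for mouse and tissue, and Cell Ranger 3.0.2 and mm10 were used, per the submitters' processing notes. How cells, tags and doublets were filtered is not given in the sources used here, and no cell was removed. The authors deposited natural log values, ln(1 + UMIs per 10000); back-transformed values were whole UMIs in 100% of cases within 0.01. The 10 genes and the gene lists were chosen with earlier results of these data known.

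Each marker was scaled to its 95th percentile among cells with a UMI, and a cell took the class with the highest mean square root of its markers if that was at least 0.2 and led by 0.1. Class names were rebuilt here and may differ from the study's. Means over cells, for classes with 20 or more cells in a mouse, were tested as log2(UMIs per 10000 + 0.1) with limma 3.58.1 (trend, R 4.3.3, two-sided) on genes averaging 0.1 or more. A count model had been considered, but the deposited unit was not a count. Comparisons within mice needed 3 mice and had the mouse as a term; genotypes were compared over 2 mice each, with all tissues of a class sharing the spread. The channel pairs the mice, per the labels. In comparisons within mice, the p-values measure the spread of the differences over these mice. In genotype comparisons, a class with several tissues gave several samples per mouse, with no mouse term. Those p-values treat the samples of a mouse as independent and do not measure a spread between mice alone. There were 30 comparisons. Named genes are the 10 members, up to 5 list genes past the threshold per comparison with the highest mean, Havcr2, and the 3 genes most correlated with each member; genes named in cells split by Slc7a11 were chosen after their values were seen. Non-immune marker genes had 2 measured members between macrophages and monocytes, of which 0 passed. The fit was also run on simulated counts that held no effect of mouse, so that run does not cover samples that share a mouse.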

Additional observations from a re-analysis of the deposited data

Results flagged for a closer look

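In each of 80 groups of 4 mice, the mouse farthest from the others was looked for in the dLN minus ndLN and other within-mouse differences of the 10 genes; 4 groups held one, and chance gives about 1 in 20. Slc7a11 was −0.28 in CD4 T cells of WT2 and −0.53 in pDC of KO2, each from 1 UMI in an ndLN, with no UMI in either node of the other 3 mice. Sod1 in CD4 T cells was −0.97 in KO1, apart from the other 3 mice, from 4 UMIs in dLN and 7 in ndLN. Srxn1 in CD8 T cells was −0.16 in WT1, again from 1 UMI in ndLN with none in either node of the other 3. With 3 mice at 0 a single UMI is enough to stand apart, so these 3 values say nothing of the mice.

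Slc7a11 was also seen in a class that entered no comparison. Neutrophil-gated tumour cells of WT1 averaged 14.7 UMIs per 10000, with 51 UMIs in 13 of 20 cells, and those of WT2 averaged 9.55, with 37 UMIs in 16 of 23 cells. Pooled rates had exact 95% Poisson intervals of 9.89 to 17.5 and 5.49 to 10.7. KO tumours had 2 and 3 such cells, so genotypes could not be compared, and the median depth of the class was 1801 UMIs.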

How the results depend on the processing

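Of 293 alternative counts of members called, 279 stayed within 1.5 times the reported count; of 41 calls of a member, 33 held under every setting that kept all mice and 26 under every setting. With the channel as a replicate block 1 member was called in KO minus WT macrophages (reported 0), the Slc7a11 call; the channel block changed no other member's call between genotypes, while with no mouse block Sod1 in mature DC minus cDC1 of dLN was not called (limma adjusted p = 0.113), and in all dLN cells 554 genes were called, against 235 (435 by limma-voom). Without mature DC, an alternative chosen after seeing the data, 0 members were called in all dLN cells (reported 1).

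Leaving out 1 mouse gave these ranges of members called. For KO minus WT they were 0 to 0 in all dLN cells (reported 1), 0 to 1 in cDC1 of dLN (without WT1), 0 to 3 in mature DC of dLN (3 without KO1) and 0 to 1 in mature DC of ndLN (without KO1, Slc7a11 −1.76). For mature DC they were 5 to 6 against cDC1 of dLN (reported 8), 2 to 5 in ndLN (reported 6, 2 without WT2), 3 to 5 against cDC2 of dLN (reported 4) and 3 to 6 in ndLN (reported 6, 3 without WT2). For tumour CD8 T minus dLN they were 1 to 3 (reported 3, 1 without KO1). Slc7a11 in KO minus WT mature DC of dLN was −1.70 without KO1, −0.10 without WT2 and 2.08 without KO2, so single mice set it; in ndLN it was 0.019 by limma-voom and 0.10 without KO2. Sod1 there in dLN was −0.42 to 0.73 with a mouse left out (−0.07 without WT1), and Prdx1 in KO minus WT macrophages −0.027 (without WT2) to 0.40. The cause was not tested, except that fewer mice entered each fit.

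Counts over all genes moved more. In KO minus WT of a class they were 0 to 13 as reported, 0 to 107 under other settings and 0 to 1165 with a mouse left out; between classes or tissues they were 2090 to 5097, 1925 to 7573 and 1524 to 4710. Depth limits Slc7a11, Srxn1, Gclc, Sod1 and Txnrd1, with averages under 1 UMI per cell in most classes.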
